A study of Chlamydomonas reinhardtii with 21 samples.

Results

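This report describes 48 of the 15425 nuclear genes of Chlamydomonas reinhardtii tested here. They had lower transcript levels in both complemented strains of the srta mutant UVM11 than in UVM11 itself. In batch 1, neither srta mutant differed from the control strain in them by more than the limit given here. The 48 genes were chosen by 4 differences of group means, each taken on log2(FPKM + 0.1). FPKM is the number of sequenced fragments per kilobase of gene, scaled to all mapped fragments of a library. A member lay below -1 in UVM11-C1 minus UVM11 (1.3% of all tested genes) and in UVM11-C9 minus UVM11 (2.4%). It also lay within 1 of 0 in UVM4 minus Elow47 (98.6%) and in UVM11 of batch 1 minus Elow47 (98.3%). The values that chose the members are given as a description, and where a count of calls is given for these contrasts it supports nothing. Batch 1 held 4 separate cultures each of Elow47, UVM4 and UVM11, and batch 2 held UVM11 again, UVM11-C9 and UVM11-C1, with 3 cultures of each. Elow47 carries the SRTA wild-type allele and is the strain from which UV mutagenesis gave UVM11 (srta-1) and UVM4 (srta-2). All of these strains therefore carry the CRY1-1 transgene of Elow47 for emetine resistance. UVM11-C1 and UVM11-C9 are single transformant clones of UVM11 that received a FLAG-tagged SRTA wild-type cDNA under the SRTA promoter, with the hygromycin resistance gene APH7” as marker. They still carry srta-1 and the other mutations of UVM11. All cultures were grown untreated in liquid TAP medium with acetate under continuous light and were harvested in mid-log phase. UVM11 was sequenced in both batches, and each complemented strain was compared with the UVM11 cultures of its own batch.

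SRTA (Cre10.g462200) encodes a sirtuin, a member of the Sir2 family of NAD-dependent deacetylases that remove acetyl groups from histones. Deacetylated histones are generally a mark of compact, less transcribed chromatin. Foreign DNA in the nucleus of this alga is often silenced, and UVM4 and UVM11 were isolated because they express transgenes well. The paper included the complemented strains to filter out differences that stem from background mutations of the UV treatment. It reasons that a gene regulated by SRTA should be raised in both mutants and lower in the complemented strains. By the rule, the 48 genes lie outside that class at the limit used here. In the 48 genes the rule kept the mutants of batch 1 within 1 of Elow47. The RefSeq release used here gave no gene a symbol other than its locus tag, members or not, so no role is stated for any.

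Replicate cultures within a group resembled each other closely. The paper ascribes the largest component of variation among the most variable genes to batch effects. Sums of FPKM per library ran from 542464 to 617687, and the lowest Pearson correlation between replicate cultures was 0.992 across 13509 genes. Relative depth, estimated from single-fragment steps, ranged from 0.822 to 1.25 over all libraries and from 0.881 to 1.13 in batch 2. The transcript of SRTA had 3.32 to 3.66 FPKM in UVM11-C9 and 4.84 to 5.63 FPKM in UVM11-C1, while UVM11 of batch 2 had 2.65 to 2.92 FPKM. SRTA was thus higher in every complemented culture than in every UVM11 culture of the same batch. In batch 1 it lay between 2.65 and 3.99 FPKM, with 3.28 to 3.71 FPKM in UVM11. Across the batches, the UVM11-C9 cultures therefore lay within the range of UVM11 of batch 1. The deposited values do not separate the introduced allele from srta-1.

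In all, 84 genes were lower by more than 1 in both complemented strains. Of these, 26 were higher by more than 1 in both mutants than in Elow47, 8 were higher in 1 mutant only, 2 were lower in a mutant, and the remaining 48 are described here. Among the 48, the median difference from UVM11 was -1.35 in UVM11-C1, with a range from -3.49 to -1.003. In UVM11-C9 it was -1.72, with a range from -4.56 to -1.02. The medians over all tested genes were 0.00094 and -0.0064. With an adjusted p below 0.01 in the model of all genes added to the size above 1, 38 members passed as lower in UVM11-C1, where 0.908% of all genes did. In UVM11-C9, 42 members passed, against 2.18% of all genes. The rule used both contrasts, so nothing is read from these counts. All 3 UVM11-C1 cultures were below all 3 UVM11 cultures in 43 members (15.7% of all genes), and all 3 UVM11-C9 cultures were in 46 (27.7%). Both held in 42 members (7.71%). The RNA came from whole cultures, so fewer cells with a transcript and less transcript per cell cannot be told apart.

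**Figure D1:**
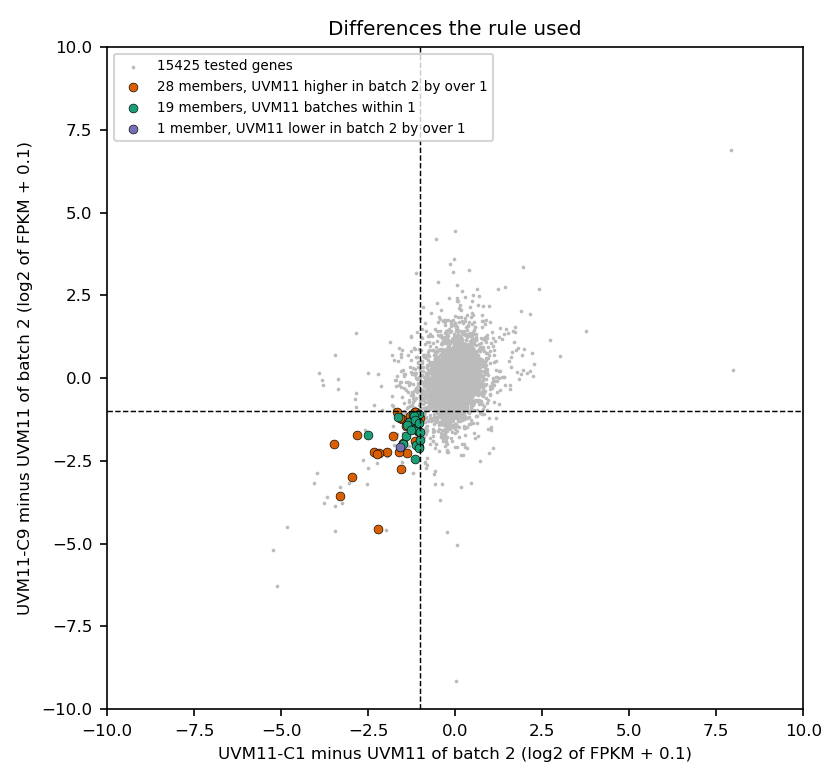
Differences of group means in log2(FPKM + 0.1), with UVM11-C1 minus UVM11 of batch 2 on the x axis and UVM11-C9 minus UVM11 of batch 2 on the y axis, for 15425 genes (grey points) and the 48 members (coloured by UVM11 of batch 2 minus UVM11 of batch 1). Dashed lines mark -1. Grey points inside the lower left area are the 36 genes that were lower in both strains but differed by 1 or more in a mutant, and both axes share the 3 UVM11 cultures.

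The members end at a threshold and not at a gap. The last genes inside were Cre09.g387912, at -1.003 in UVM11-C1, Cre16.g681051, at -1.01 in UVM11-C1, and Cre01.g018184, at -1.02 in UVM11-C9. Just outside were Cre09.g413700 and Cre03.g154000, both at -0.99 in UVM11-C9, and Cre02.g096250, at -0.97 in UVM11-C1. Of the genes shut out by the mutants, the nearest was Cre12.g546550, at -1.01 in UVM4 minus Elow47, followed by Cre01.g005400 at 1.04 and Cre01.g042600 at 1.07 in the same comparison. The member nearest to this limit from inside was Cre01.g042650, at 0.90 in UVM4 minus Elow47.

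Against Elow47, the members' median difference was 0.11 in UVM4 and 0.14 in UVM11 of batch 1, and all lay within 1 by the rule. Within that limit, 4 members had an adjusted p below 0.01 in UVM4, where 4.08% of all genes had. Cre09.g393150 was at -0.65, Cre12.g546500 at -0.76, Cre03.g152650 at -0.70 and Cre16.g672609 at 0.85. In UVM11 of batch 1 it was 1 member, Cre12.g543400, at 0.57 (4.01% of all genes), and this one was lost without Elow47 replicate 2 or without UVM11 replicate 2, 3 or 4, leaving 0. The word unchanged therefore stands for a difference below 1 in batch 1 and not for equal levels. UVM11 of batch 2 minus Elow47, which crosses the batches, had a median of 1.28 in the members. In this contrast 33 members were above 1 and 2 below -1, and the median over all tested genes was 0.00081. The rule favoured genes high in UVM11 of batch 2 and the share of all genes was not counted, so nothing is read from these counts.

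The level of UVM11 itself differed between the batches in most members. UVM11 of batch 2 had the highest mean of the 6 groups in 42 of the 48 members (17.3% of all genes), and its 3 cultures were above all 18 other cultures in 34 members (3.43% of all genes). The median of UVM11 of batch 2 minus UVM11 of batch 1 was 1.21, with a range from -1.23 to 3.86, while the median over all genes was -0.0043. With the adjusted p below 0.01 and the size above 1, 28 members were higher in batch 2 and 1 was lower, against 4.15% and 1.08% of all genes. By size alone, 28 members were above 1, against 4.3% of all genes. The remaining 19 members lay within 1. These UVM11 cultures of batch 2 are the same ones against which the members were chosen, so the rule favoured genes that were high in them, and nothing is read from the counts. The strain was the same in both batches, and the cultures, the RNA preparation and the libraries cannot be told apart as sources of the difference.

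**Figure D2:**
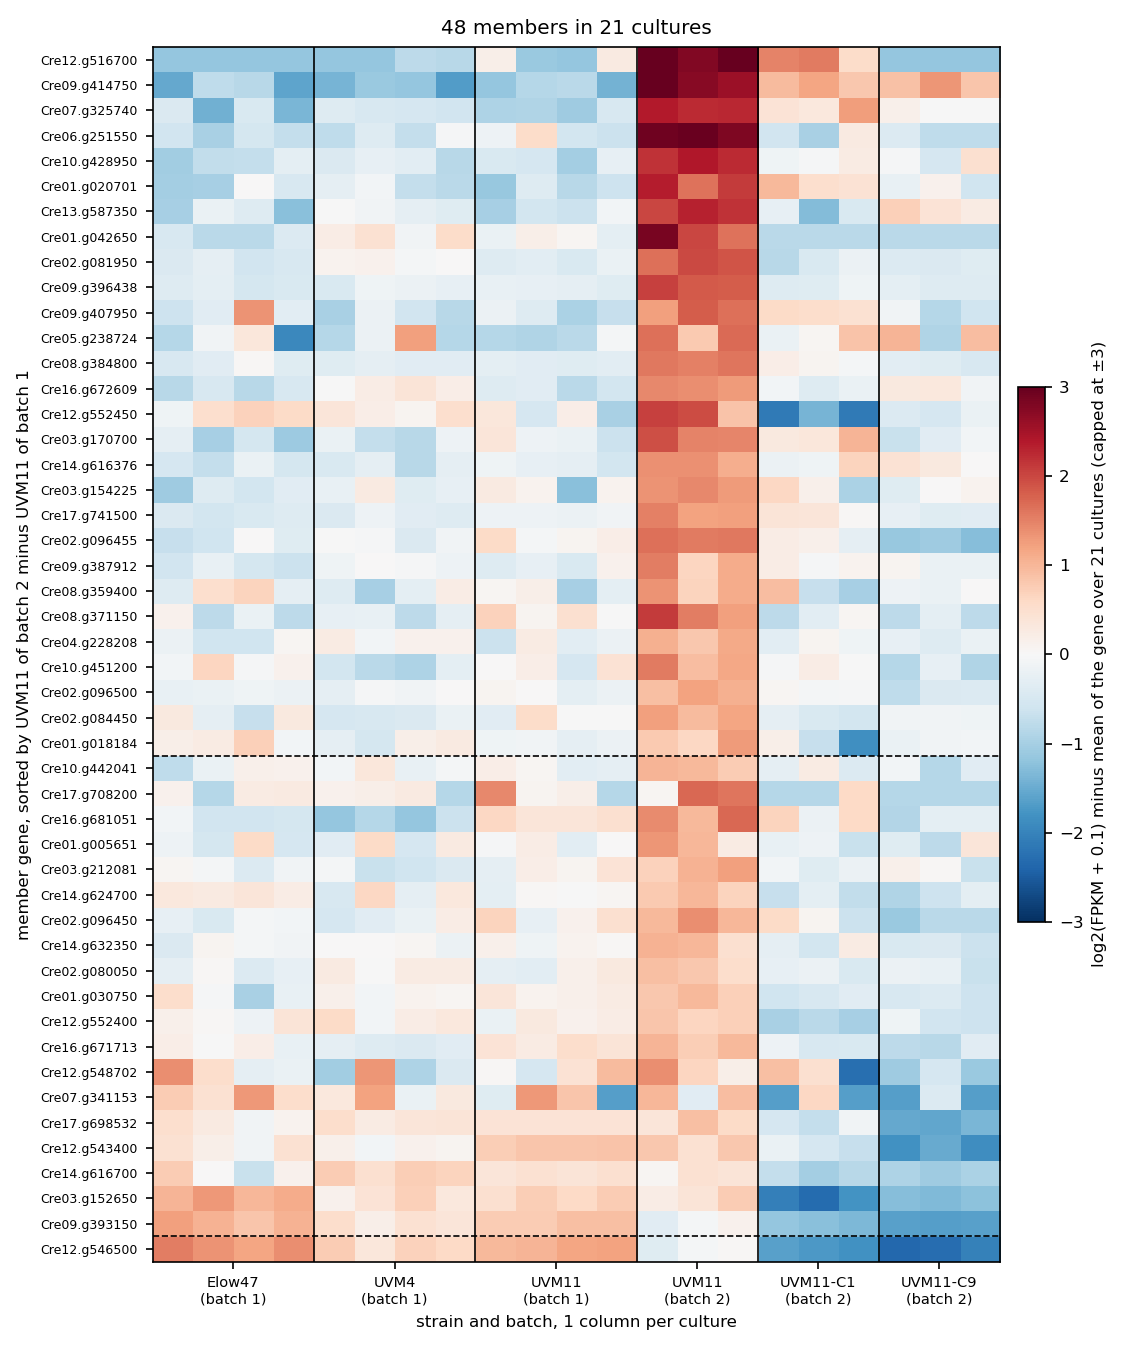
Levels of the 48 members (rows) in 21 cultures (columns, grouped by strain and batch), as log2(FPKM + 0.1) minus the mean of the gene over all cultures. Rows are sorted by UVM11 of batch 2 minus UVM11 of batch 1, and dashed lines divide the 28 members above 1, the 19 within 1 and the 1 below -1. In 24 of the upper 28 rows the 3 UVM11 columns of batch 2 are above all others (3.43% of all genes), which the rule and the sorting favour. In the lowest rows the 6 columns of the complemented strains are the low ones.

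Against the UVM11 cultures of batch 1 in place of those of batch 2, both complemented strains lay within 1 of the mutant in 28 of the 48 members. The shares of all genes were not counted for this or the other member counts of this comparison, so nothing is read from them. The median difference was -0.19 for UVM11-C1 and -0.33 for UVM11-C9, against -0.02 and -0.012 over all tested genes. In UVM11-C1, 7 members were below -1 and 5 above 1, and in UVM11-C9 these were 12 and 2. The rule favoured genes high in UVM11 of batch 2, so smaller differences from batch 1 follow in part from it. In the 28 members that were higher in batch 2 the medians were 0.13 and -0.058, and 20 of them lay within 1 in both. In the 19 members in which the batches of UVM11 lay within 1, the medians were -0.58 and -1.04, and by the rule and this limit together all must lie below 0. These comparisons cross the batches. Against Elow47, the medians over the 48 members were -0.015 for UVM11-C1 and -0.20 for UVM11-C9.

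In all 28 members that were higher in batch 2, the 3 UVM11 cultures lay above the 4 UVM11 cultures of batch 1 (28.5% of all genes). In 24 of them they lay above all 18 other cultures (3.43%). The 28 were picked by this same difference, so nothing is read from these counts. Cre08.g384800 on chromosome 8 (4866566 to 4871357) had the highest level among them. Its values were 53.9, 51.2 and 54.0 FPKM in UVM11 of batch 2, 20.6, 18.7 and 17.0 FPKM in UVM11-C1, and 14.2, 13.9 and 12.7 FPKM in UVM11-C9. In batch 1 it lay between 12.8 and 18.2 FPKM in Elow47, between 13.9 and 14.6 FPKM in UVM4, and between 13.9 and 14.6 FPKM in UVM11. The 3 UVM11 cultures of batch 2 were therefore well above every other culture, and the batches of UVM11 differed 3.73-fold in their means. UVM11-C9 was at the level of batch 1, and UVM11-C1 slightly above most of it.

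Cre09.g396438 on chromosome 9 (4591594 to 4604249), the longest member with 12656 bases, had closely grouped values. It had 13.9, 12.1 and 11.97 FPKM in UVM11 of batch 2 and 2.52, 2.56 and 3.01 FPKM in UVM11-C1. UVM11-C9 had 2.66, 2.52 and 2.49 FPKM, and the 12 cultures of batch 1 lay between 2.26 and 3.04 FPKM. Apart from UVM11 of batch 2, all 5 groups overlapped. The mean of UVM11 was 4.66-fold higher in batch 2 than in batch 1, 4.70-fold higher than UVM11-C1 and 4.95-fold higher than UVM11-C9.

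Cre02.g081950 on chromosome 2 (1185198 to 1196816) had the same form, with 2.41, 3.03 and 2.84 FPKM in UVM11 of batch 2. UVM11-C1 had 0.349, 0.482 and 0.599 FPKM and UVM11-C9 had 0.497, 0.489 and 0.521 FPKM. Batch 1 lay between 0.435 and 0.764 FPKM, so the complemented strains overlapped with Elow47 and with UVM11 of batch 1. Cre17.g741500 on chromosome 17 (6122510 to 6131715) had 10.4, 8.40 and 8.60 FPKM in UVM11 of batch 2, while UVM11-C1 had 4.72, 4.68 and 3.66 FPKM. UVM11-C9 had 2.99, 2.75 and 2.80 FPKM. Its values in batch 1 were 2.43 to 3.32 FPKM, and all UVM11-C1 cultures were above them.

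Cre09.g407950 on chromosome 9 (6551678 to 6555128) was less uniform. UVM11 of batch 2 had 16.7, 25.4 and 22.4 FPKM, UVM11-C1 had 10.6, 10.3 and 9.72 FPKM, and UVM11-C9 had 6.57, 3.88 and 4.68 FPKM. In Elow47 it had 4.56, 5.56 and 5.62 FPKM in 3 cultures and 18.2 FPKM in the remaining culture, replicate 3, which reached the range of UVM11 of batch 2. The mutants of batch 1 lay between 3.53 and 6.24 FPKM.

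Other members of this group were near 0 except in UVM11 of batch 2. Cre06.g251550 on chromosome 6 (348449 to 353904) had 1.38, 1.42 and 1.26 FPKM there. UVM11-C1 had 0.0315, 0 and 0.135 FPKM, UVM11-C9 had 0.0459, 0.0141 and 0.0143 FPKM, and no culture of batch 1 exceeded 0.183 FPKM. The 3 UVM11 cultures of batch 2 agreed within a narrow range, while none of the 18 others came near them. Cre10.g428950 on chromosome 10 (1515672 to 1519913) had 1.28, 1.51 and 1.36 FPKM in UVM11 of batch 2, 0.116 to 0.327 FPKM in the complemented strains and 0.0497 to 0.160 FPKM in batch 1. Cre01.g042650 on chromosome 1 (6012650 to 6015205) had 1.17, 0.605 and 0.444 FPKM in UVM11 of batch 2. It was listed at 0 in all 6 cultures of the complemented strains and in 2 cultures of Elow47, and at 0.0417 to 0.154 FPKM in the mutants of batch 1. No fold is given against the groups listed at 0. Without the UVM11 cultures of batch 2, at least Cre06.g251550, Cre01.g042650 and Cre12.g516700, described next, would not have passed the filter at a mean of 0.1 FPKM. The same held for Cre08.g371150, Cre08.g359400 and Cre17.g708200. Their high values in UVM11 of batch 2 and low values elsewhere are thus what the filter and the rule let in, and nothing is read from this form.

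Cre12.g516700 on chromosome 12 (3981439 to 3984823) had the largest difference between the batches of UVM11, 3.86. Its values were 4.08, 1.43 and 1.96 FPKM in UVM11 of batch 2 and 0.524, 0.560 and 0.225 FPKM in UVM11-C1. Every culture of UVM11-C9 and Elow47 was listed at 0, and the mutants of batch 1 reached 0.170 FPKM at most. The gene model has the same start and end as Cre12.g516717, an overlap of 3385 bases, so its values are uncertain, since fragments could be divided between the models. Cre13.g587350 on chromosome 13 (3425085 to 3429370) had 2.04, 2.54 and 2.31 FPKM in UVM11 of batch 2, 0.347, 0.115 and 0.290 FPKM in UVM11-C1, and 0.777, 0.604 and 0.535 FPKM in UVM11-C9. Batch 1 lay between 0.124 and 0.432 FPKM, which UVM11-C9 exceeded in every culture. The members near the threshold were Cre01.g018184 on chromosome 1 (2967171 to 2968146), with 3.70, 3.29 and 5.23 FPKM in UVM11 of batch 2, and Cre09.g387912 on chromosome 9 (3256350 to 3264828), with 0.711, 0.331 and 0.4999 FPKM. For 13 of the 28 members no FPKM values are given individually. Their means ran from 0.322 to 8.48 FPKM in UVM11 of batch 2 and from 0.0744 to 2.78 FPKM in UVM11 of batch 1.

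**Figure D3:**
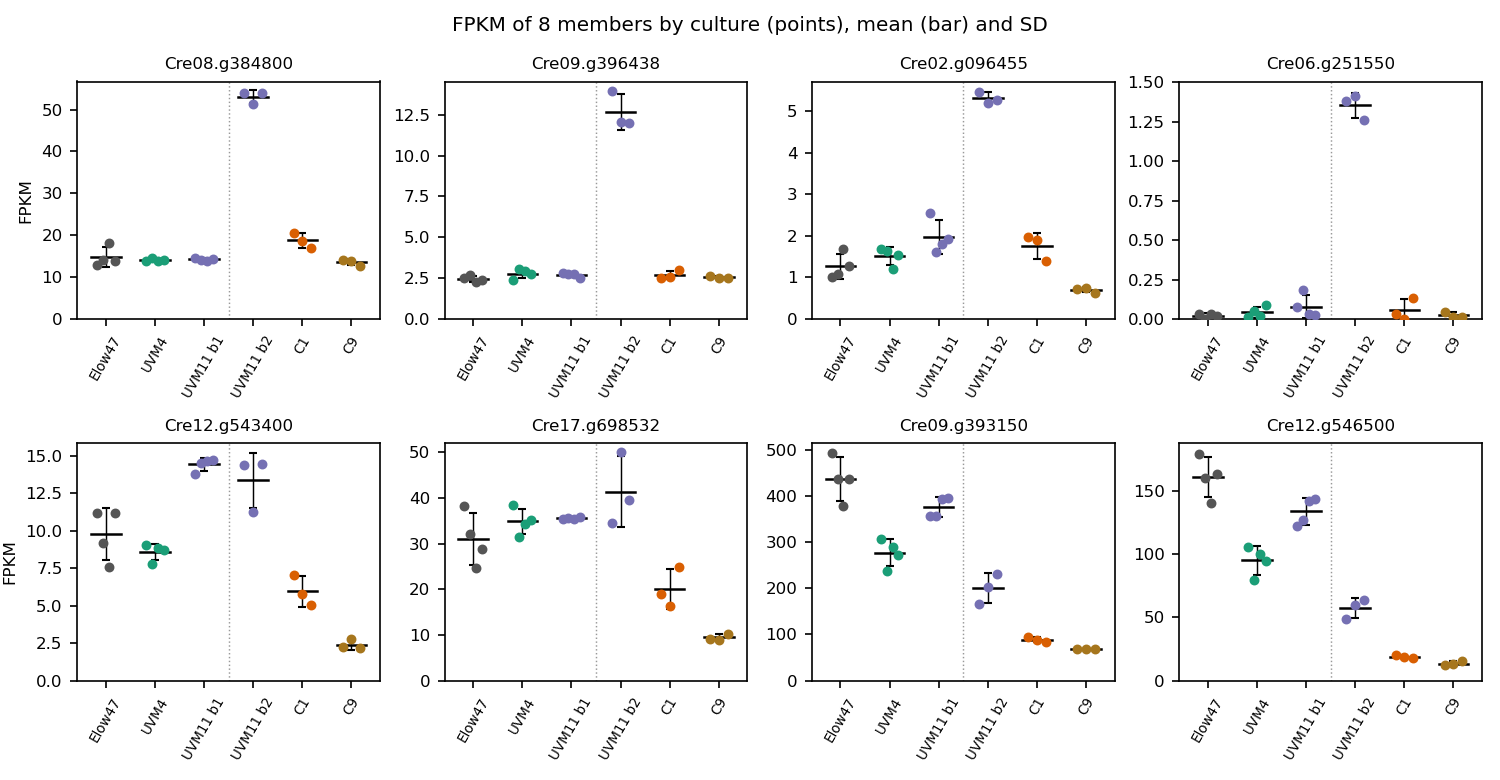
FPKM of 8 members in each culture (points), with the group mean (bar) and SD (whiskers, n = 4 in batch 1 and n = 3 in batch 2). The dotted line divides batch 1 (left) from batch 2 (right), b1 and b2 are the batches of UVM11, and C1 and C9 are UVM11-C1 and UVM11-C9. In the upper panels UVM11 of batch 2 is the high group, and in the lower panels the complemented strains are the low groups.

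In the 19 members in which UVM11 differed by less than 1 between the batches, the median of that difference was still above 0, at 0.62, and 15 of the 19 were above 0. UVM11 of batch 2 was the highest group in 14 of them, and in 17.3% of all genes. The share of all genes with UVM11 higher in batch 2 was not counted. Every complemented culture was below every one of the other 15 cultures in 5 members, which are Cre03.g152650, Cre09.g393150, Cre12.g543400, Cre14.g616700 and, outside the 19, Cre12.g546500 (1.44% of all genes). By group means, both complemented strains were below all 3 strains of batch 1 in 17 members (28.0% of all genes). The rule favoured genes high in UVM11 of batch 2 and low in the complemented strains, so nothing is read from these counts.

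Cre12.g543400 on chromosome 12 (9026224 to 9029715) was nearly equal in the batches of UVM11, with 13.8, 14.5, 14.7 and 14.7 FPKM in batch 1 and 14.4, 11.3 and 14.5 FPKM in batch 2. UVM11-C1 had 7.05, 5.76 and 5.03 FPKM and UVM11-C9 had 2.22, 2.78 and 2.15 FPKM. Elow47 had 7.597 to 11.2 FPKM and UVM4 7.75 to 9.01 FPKM, so the complemented strains were below the control strain as well. The order of the means was UVM11-C9, UVM11-C1, UVM4, Elow47 and UVM11, and only UVM4 and Elow47, and the batches of UVM11, overlapped as neighbours in it.

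Cre17.g698532 on chromosome 17 (346794 to 349185) had 34.6, 49.9 and 39.5 FPKM in UVM11 of batch 2 and 35.3 to 35.7 FPKM in UVM11 of batch 1. UVM11-C1 had 18.9, 16.3 and 25.0 FPKM, and its highest culture was just above the lowest of Elow47, which ranged from 24.7 to 38.2 FPKM. UVM11-C9 was lower, with 9.20, 8.97 and 10.2 FPKM. UVM4 lay between 31.5 and 38.4 FPKM. Cre14.g616700 on chromosome 14 (1292200 to 1299358) had 7.06, 9.23 and 8.83 FPKM in UVM11 of batch 2, 8.72 to 9.45 FPKM in UVM11 of batch 1 and 9.40 to 11.5 FPKM in UVM4. UVM11-C1 had 4.04, 3.27 and 3.72 FPKM and UVM11-C9 had 3.503, 3.19 and 3.43 FPKM. Elow47 was spread from 4.21 to 11.4 FPKM, and its lowest culture came close to UVM11-C1.

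Cre03.g152650 on chromosome 3 (1602826 to 1607751) was low in both complemented strains against every other group. It had 1.31, 1.49 and 1.97 FPKM in UVM11 of batch 2 and 1.60 to 1.96 FPKM in UVM11 of batch 1. UVM11-C1 had 0.195, 0.146 and 0.251 FPKM and UVM11-C9 had 0.402, 0.382 and 0.419 FPKM, which are 8.05-fold and 3.96-fold below the mean of UVM11 in batch 2. Elow47 was highest, with 2.31 to 2.87 FPKM. Cre16.g681051 on chromosome 16 (5444202 to 5446631), just inside the threshold, had 0.504, 0.340 and 0.638 FPKM in UVM11 of batch 2 and 0.0225 to 0.256 FPKM in the complemented strains. The 11 members of this group not described individually had means from 0.316 to 4.04 FPKM in UVM11 of batch 2. Their means were 0 to 1.53 FPKM in UVM11-C9 and 0.0589 to 1.69 FPKM in UVM11-C1.

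The members of highest level had a different order of groups. Cre09.g393150 on chromosome 9 (2173636 to 2185319) had 493, 437, 377 and 436 FPKM in Elow47. UVM11 of batch 1 had 357, 357, 393 and 395 FPKM, and UVM4 had 307, 238, 290 and 273 FPKM. In batch 2, UVM11 had 166, 204 and 232 FPKM, UVM11-C1 had 94.7, 88.3 and 82.7 FPKM, and UVM11-C9 had 68.6, 67.3 and 68.9 FPKM. Thus UVM11 was lower in batch 2 than in batch 1, by -0.92, and both complemented strains were lower again.

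Cre12.g546500 on chromosome 12 (8675408 to 8681279) is the single member that was lower in UVM11 of batch 2 by more than 1, at -1.23. It had 180, 160, 141 and 163 FPKM in Elow47, 123 to 144 FPKM in UVM11 of batch 1 and 79.4 to 105 FPKM in UVM4. UVM11 of batch 2 had 48.4, 59.6 and 64.0 FPKM, UVM11-C1 had 20.0, 18.7 and 17.6 FPKM, and UVM11-C9 had 12.2, 12.8 and 15.3 FPKM. No group overlapped with another except Elow47 and UVM11 of batch 1 at their edges. Both complemented strains were thus low in this gene against UVM11 of either batch.

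The members were mostly genes of low level. Their median of the mean FPKM over 21 libraries was 0.854, against 5.61 for all tested genes, and 26 of 48, or 54.2%, had a mean below 1 FPKM, against 12.4%. Only 4 members had a mean above 10 FPKM. The gene models had a median length of 3649 bases, against 4538.5 bases for all tested genes with a position. Replicates of a member were accordingly more spread, with a median SD of log2(FPKM + 0.1) of 0.22 in UVM11 of batch 2, where that of all genes was 0.11. Values listed at 0 in at least 1 library occurred in 11 members. All UVM11-C9 cultures were listed at 0 in 3 members, Cre01.g042650, Cre12.g516700 and Cre17.g708200, of which the first was at 0 in UVM11-C1 too. The highest culture of UVM11 in batch 2 was not the same throughout. Replicate 5 was the highest in 25 members, or 52.1%, replicate 6 in 13 and replicate 7 in 10, while over all genes replicate 5 was highest in 38.2%. Without replicate 5, 37 of the 48 stayed members, the fewest for any culture left out.

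The 48 members lay on 15 chromosomes, at most 6 on one. Of them, 5 lay directly beside another member. On chromosome 2, Cre02.g096450, Cre02.g096455 and Cre02.g096500 followed each other within 6804 bases (3927042 to 3933845). Cre02.g096455 had 5.47, 5.19 and 5.26 FPKM in UVM11 of batch 2, 1.97, 1.90 and 1.39 FPKM in UVM11-C1, and 0.717, 0.756 and 0.637 FPKM in UVM11-C9. Batch 1 lay between 1.01 and 2.55 FPKM, so that UVM11-C9 was the lowest group and UVM11-C1 overlapped with batch 1. Cre02.g096450 had means of 1.76, 0.800 and 0.354 FPKM in the same order of strains, and Cre02.g096500 had 10.8, 5.05 and 3.51 FPKM. The genes before them were lower in the complemented strains too. Cre02.g096300, Cre02.g096350 and Cre02.g096400 were at -0.94, -0.83 and -0.62 in UVM11-C1 and at -0.78, -1.19 and -0.67 in UVM11-C9. The gene after them, Cre02.g096551, was at -0.42 and 0.05.

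On chromosome 12, Cre12.g552450 and Cre12.g552400 followed each other within 6211 bases (7934893 to 7941103). Cre12.g552450 had 1.69, 1.60 and 0.685 FPKM in UVM11 of batch 2. In UVM11-C1 it was listed at 0 in 2 cultures and at 0.0666 FPKM in the other, and UVM11-C9 had 0.227, 0.209 and 0.282 FPKM. Batch 1 lay between 0.121 and 0.608 FPKM, above every culture of UVM11-C1. Cre12.g552400 had 1.35, 1.18 and 1.24 FPKM in UVM11 of batch 2 and 0.620 to 1.13 FPKM in batch 1. UVM11-C1 had 0.320, 0.369 and 0.311 FPKM, again below batch 1, while UVM11-C9 had 0.649, 0.449 and 0.429 FPKM. The genes on either side, Cre12.g552500 and Cre12.g552350, were at 0.07 and -0.06 in UVM11-C1 and at 0.19 and -0.53 in UVM11-C9.

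Directly beside the members lay 90 tested genes that are not members. Their median difference was 0.025 for UVM11-C9 and -0.067 for UVM11-C1, close to that of all genes. Of the 90, 4 were below -1 in both strains, or 4.44%, where 84 of all tested genes, or 0.545%, were. The 84 include the 48 members, whereas the 90 hold none, so the shares are not like for like. These 4 are named although they were picked after their values were seen. Cre01.g042600 and Cre01.g042700 stand on either side of Cre01.g042650, at -3.05 and -4.07 in UVM11-C1 and at -3.16 and -3.18 in UVM11-C9. They are not members because UVM4 was above Elow47 by 1.07 and 2.19. Cre08.g371250, after Cre08.g371150, was at -1.60 and -1.94. Cre12.g546550, before Cre12.g546500, was at -1.96 and -2.36, and its means were 1801 FPKM in Elow47, 544 FPKM in UVM11 of batch 2, 103 FPKM in UVM11-C9 and 135 FPKM in UVM11-C1. The gene beyond Cre12.g546550, Cre12.g546600, was at -1.25 in UVM11-C1 and -0.95 in UVM11-C9.

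**Figure D4:**
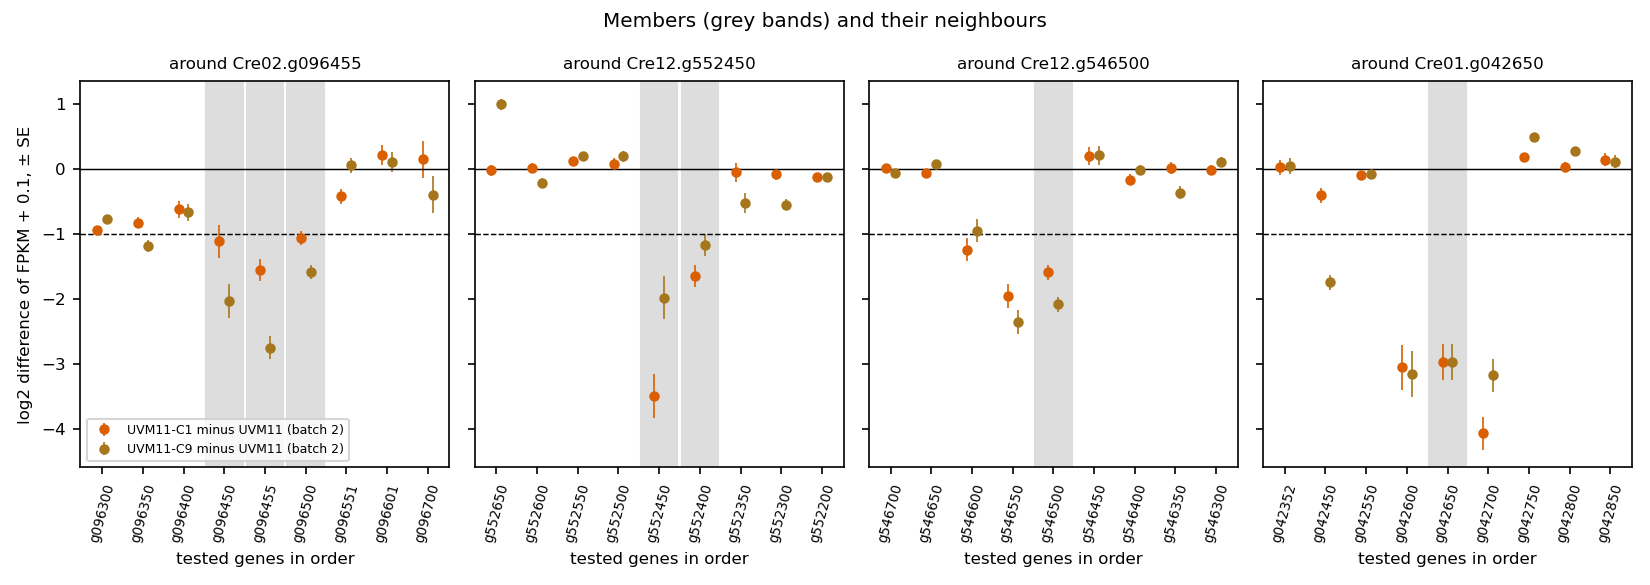
UVM11-C1 minus UVM11 and UVM11-C9 minus UVM11 of batch 2 (log2 of FPKM + 0.1, with the SE of the model) for 9 tested genes in chromosomal order around 4 members. Grey bands mark members, and the dashed line marks -1. Next to the members on chromosomes 1 and 2 and around Cre12.g546500, genes that are not members were low as well, whereas those around Cre12.g552450 were within 1 of 0.

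The complemented strains differed from each other in some members, which is given as a description. The rule limits the difference, since with both strains below -1 a member could be higher in UVM11-C9 by more than 1 only where UVM11-C1 was below -2, in 9 members, and lower only where UVM11-C9 was below -2, in 16 members. UVM11-C9 minus UVM11-C1 had a median of -0.22, with 33 members below 0, 14 above and 1 at 0, and a median SE of 0.24. With the adjusted p below 0.01 and the size above 1, 4 members were lower in UVM11-C9 (1.88% of all genes) and 2 were higher (1.79%). Lower were Cre12.g516700 at -2.35 (SE 0.39), Cre12.g543400 at -1.28 (SE 0.14), Cre02.g096455 at -1.19 (SE 0.17) and Cre17.g698532 at -1.06 (SE 0.14). In each of these, the 3 UVM11-C9 cultures lay below the 3 UVM11-C1 cultures. Higher were Cre12.g552450 at 1.51 (SE 0.33) and Cre13.g587350 at 1.13 (SE 0.28), each with all UVM11-C9 cultures above those of UVM11-C1. Cre13.g587350 no longer met both limits without culture b of UVM11-C1, at 0.81, or without replicate 1 of UVM11-C9, at 1.00, nor did Cre17.g698532 without culture c of UVM11-C1, at -0.89. With a pseudocount of 1 in place of 0.1, only Cre12.g543400 of the 6 met them, at -1.03.

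At any size, 13 members had an adjusted p below 0.01, 10 of them lower in UVM11-C9, where 34.9% of all genes had. Cre03.g152650 was at 0.77 (SE 0.16), with every UVM11-C9 culture above UVM11-C1. The cultures of UVM11-C9 were all below those of UVM11-C1 in 16 members (25.0% of all genes) and all above in 5 (28.1%). Close to 0 were Cre09.g396438, at -0.07 (SE 0.09), and Cre02.g081950, at 0.09 (SE 0.14). UVM11-C1 and UVM11-C9 are 1 clone each, so that a difference between them cannot be told apart from a difference between clones.

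**Figure D5:**
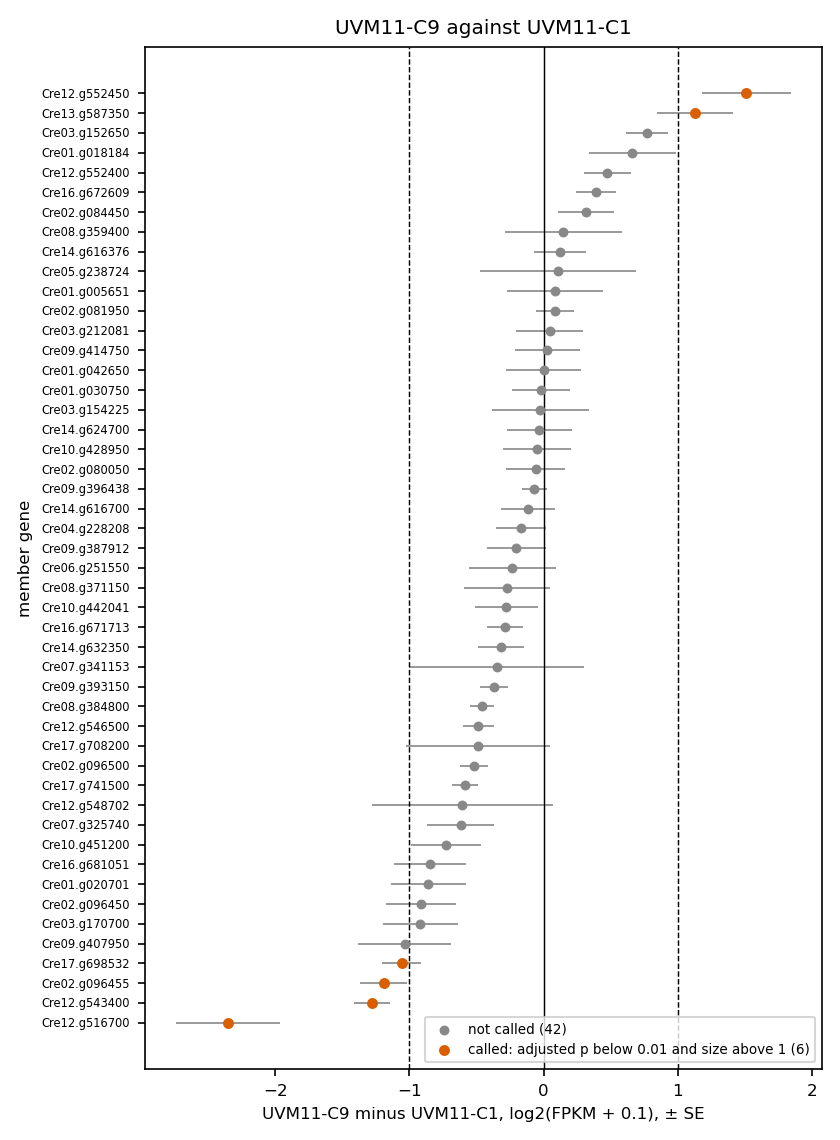
UVM11-C9 minus UVM11-C1 (log2 of FPKM + 0.1, x axis) with the SE of the model for each of the 48 members, sorted by the difference. Orange points mark the 6 members with an adjusted p below 0.01 and a size above 1 (dashed lines), 4 of them lower and 2 higher in UVM11-C9.

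The 26 genes that were lower in both complemented strains but higher in both mutants offer the nearest comparison, given as values without a test. Their median difference from UVM11 was -2.55 for UVM11-C9 and -2.12 for UVM11-C1, where the 48 members had -1.72 and -1.35. UVM11 of batch 2 was above UVM11 of batch 1 by more than 1 in 13 of the 26 and below by more than 1 in 7, against 28 and 1 of the 48 members. Relative to UVM11 of batch 1, the 26 genes had medians of -1.49 in UVM11-C1 and -1.75 in UVM11-C9, where the members had -0.19 and -0.33. The 26 and the 48 were divided by the differences of UVM4 and of UVM11 of batch 1 from Elow47. Contrasts with UVM11 of batch 1 therefore follow in part from that division, and nothing is read from them.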

How the data were processed

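RNA of 21 cultures, poly(A) RNA per the labels, was sequenced. The labels name a stranded total RNA library kit, while the methods of the study name an mRNA kit with poly(A) enrichment, and which was used was not settled. The authors aligned the reads with STAR (version 2.4.0j, alignIntronMax 3000) to version 5 of the genome and deposited 1 FPKM value per gene model of version 5.5 and culture, computed with Cuffdiff (version 2.2.1). Whether counting used the strand is not given in the sources used here. Reads per library are unknown, so the precision is the spread between cultures, whose number limits it, and p-values measure that spread within 1 clone of each strain. The relative depth came from 713 genes, in which 97.8% of 4817 low values were whole multiples of a step to within 0.1.

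FPKM values were taken as log2(FPKM + 0.1). Of 17741 gene models, 15425 had a mean above 0.1 FPKM and were tested, and 2316 were not. This pseudocount understates changes of low genes. Group means of the 6 groups of strain and batch gave the members. A single limma model (version 3.58.1, R 4.3.3) with a variance trend and 15 residual degrees of freedom gave two-sided Benjamini-Hochberg adjusted p-values, and a call needed an adjusted p below 0.01 and an absolute log2 difference above 1. It was tested on simulated data. UVM11-C9 against UVM11-C1 was planned as a test of the members, but the rule bounds that difference, so it is given as a description. Counts were not used. The columns of UVM11-C1 carry no replicate number, and its cultures are named a, b and c.

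The members and lists were chosen with earlier results of these data known. Named members are the 10 of highest mean, the 10 of lowest mean difference of the complemented strains, adjacent members and those at the threshold, and other genes named were chosen after their values were seen. RefSeq (v5.5) gave positions of all 48 members, but it gave no gene of the alga a symbol other than the locus tag. Gene lists by symbol were therefore not applied, and no role is given. Sequences and promoter motifs were not analysed here. Alternatives were pseudocounts of 1 and 0.01, no filter or a mean above 1 FPKM, quantile normalization, a model of the compared groups, a replicate block, and leaving out each culture.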

Additional observations from a re-analysis of the deposited data

Results flagged for a closer look

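Among 72 pairs of a named member and a strain of batch 1, 2 held a culture far from the 3 others, and about 1 in 20 such groups would by chance. Cre09.g407950 had 18.2 FPKM in Elow47 replicate 3. Cre16.g681051 had 0.112 FPKM in Elow47 replicate 1, and this gene, just inside the threshold, was no member without that library or without any 1 of 3 others, UVM11 replicate 5 or 7 of batch 2 or culture b of UVM11-C1.

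In 6 members UVM11-C9 and UVM11-C1 lay apart by more than 1 with an adjusted p below 0.01 in the limma model of all genes. The members were chosen on the levels of both strains, which limits the direction and size of this difference, so the values are a description. UVM11-C9 was below UVM11-C1 by -1.19 in Cre02.g096455, -2.35 in Cre12.g516700, -1.28 in Cre12.g543400 and -1.06 in Cre17.g698532. It was above UVM11-C1 by 1.51 in Cre12.g552450 and 1.13 in Cre13.g587350.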

How the results depend on the processing

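The choice of members depended on how low values were treated. With a pseudocount of 1, 19 genes met the rule, 13 of them among the 48, and 22 did when only genes with a mean above 1 FPKM were kept, all among the 48. A pseudocount of 0.01 gave 54 (39 shared), no filter 60 (48 shared) and quantile normalization 42 (40 shared). Leaving out single cultures gave 41 to 53, the lowest without replicate 5 of UVM11 in batch 2 (37 shared). Of the 48, 26 were members each time a culture was left out. Only 7 were members in each of these and under every alternative pseudocount, filter and normalization. A pseudocount of 1 also lowered the counts of members called to 18 in UVM11-C1, 20 in UVM11-C9, 1 in UVM11-C9 against UVM11-C1 and 16 between the batches of UVM11. With the filter at 1 FPKM these were 21, 21, 3 and 12, where fewer members were tested. Without 1 culture they were 30 to 37, 39 to 42, 5 to 7 and 25 to 29. For UVM4 against Elow47 the count was 4 to 5. For UVM11 of batch 1 against Elow47 it was 0 without a filter, and 0 to 2 without 1 culture. In UVM11-C9 against UVM11-C1, a pseudocount of 1 brought Cre02.g096455 to -0.69, Cre12.g516700 to -0.51, Cre12.g552450 to 0.28, Cre13.g587350 to 0.39 and Cre17.g698532 to -0.99. In a model of the compared groups alone, Cre13.g587350 had a limma adjusted p of 0.0153. That model called 26 members in UVM11-C1, where the main model called 38, and 44 in UVM11-C9, where it called 42. The counts were 6 in UVM11-C9 against UVM11-C1 and 28 between the batches of UVM11, as in the main model. No direction was reversed in these alternatives. Low values limit most members, since 26 of 48 lie below 1 FPKM.

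A replicate block in batch 1 left 4 members called in UVM4 and 1 in UVM11, as without it. Cultures of the same number deviated from their group means with correlations from -0.145 to 0.148, so the numbers were not taken to pair them. No paired analysis was possible for batch 2 because the columns of UVM11-C1 carry no number and UVM11 shares none with UVM11-C9.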
